A study of Mus musculus with 4 samples.

Results

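The immunoglobulin light chain genes are the genes whose symbols start with Igkv, Igkc, Iglv or Iglc, and 168 of the 31053 genes measured met that rule. They were 160 kappa variable genes (Igkv), the single kappa constant gene Igkc, 3 lambda variable genes (Iglv) and 4 lambda constant genes (Iglc). They were read in spleen cells of C57BL/6 mice, sorted as live CD45+ cells of low forward and side scatter and profiled by droplet single-cell RNA sequencing, in 4 libraries (1 for each group, with no replicate). Both wild types (WT), young and aged, carried miR155 fl/fl, the floxed allele of miR-155. The miR-146a knockout lacked miR-146a in the whole body, and the double knockout also lacked miR-155 in T cells, by a conditional deletion; the sources used here do not name its Cre driver. By this design, B cells of the double knockout keep miR-155. The 3 aged groups were 15 months old, and each was a pool of 3 to 6 mice. For the young WT, the sources used here give no age and no pool size. Groups are given below in the order young WT, aged WT, miR-146a knockout, double knockout.

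A B cell joins 1 variable and 1 joining segment of a kappa or lambda locus in its bone marrow precursor stage, and the joined gene is transcribed together with the constant exon of that locus. Most mature B cells make 1 light chain type only, a state called isotypic exclusion, and most mouse B cells make kappa. Plasma cells, the antibody-secreting end stage of the lineage, hold far more light chain mRNA than resting B cells, so that lysed plasma cells can leave these transcripts free in the cell suspension. T cells should make none, and their counts give the free RNA level here.

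All 168 members matched the GENCODE M21 annotation of GRCm38 (mm10). The Igkv genes lie on chromosome 6 between 67555497 and 70704177, with 75 on the plus strand and 85 on the minus strand, and Igkc lies beside them at 70726435 to 70726966 on the plus strand. The annotation calls 100 of the Igkv members V genes and 60 of them V pseudogenes. The lambda locus on chromosome 16 is on the minus strand. In the direction of transcription it holds Iglv2 (19260401 to 19260859), Iglv3 (19241207 to 19241690), Iglc2 (19198396 to 19200351), Iglc4 (19194999 to 19195312), Iglv1 (19085017 to 19085500), Iglc3 (19065230 to 19065681) and Iglc1 (19061618 to 19062071).

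Iglc2 and Iglc3 are close copies, and their separate counts are uncertain for that reason. Their coding sequences were identical at 96.2% of aligned positions and shared a run of 79 bases, and their 3' untranslated regions were identical at 90%. Iglc1 differed more, with 73.7% identity to Iglc2 and a longest shared run of 19 bases. The first 30 bases of the constant exon show this, with capitals at the 8 positions where the 3 genes are not all alike; Iglc2 and Iglc3 differ at 2 of them. They are transcript sequences of GENCODE on GRCm38, minus strand, at 16:19062040-19062069, 16:19198821-19198850 and 16:19065650-19065679 in the order printed.
Iglc1: cagcccaagtcTTcGccATcAGtcaccCtg
Iglc2: cagcccaagtcCAcTccCAcTCtcaccGtg
Iglc3: cagcccaagtcCAcTccCAcACtcaccAtg

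The 3' end of a variable exon lies next to the joint and encodes the start of the third complementarity-determining region, a part of the antigen-binding site. The last 30 germline bases are given for the 5 variable genes that the results turn on, with the codon of the conserved cysteine in capitals. In the order printed, they lie at 6:68736297-68736326 (minus strand), 6:70672348-70672377 (plus), 6:69900424-69900453 (minus), 6:67861630-67861659 (plus) and 16:19085017-19085046 (minus) of GRCm38.
Igkv19-93: ttatTGTctacagtatgataatcttctacc
Igkv3-4: ttacTGTcagcaaagtaatgaggatcctcc
Igkv5-39: ttacTGTcaaaatggtcacagctttcctcc
Igkv17-127: ctacTGTttgcaaagtgataacatgcctct
Iglv1: ttcTGTgctctatggtacagcaaccatttc
Igkv19-93 had no close copy, its nearest member being Igkv10-94 at 79.5% identity. The nearest copy was at 93.3% for Igkv3-4 (Igkv3-3), 91.6% for Igkv5-39 (Igkv5-45), 97.9% for Igkv17-127 (Igkv17-121) and 97.5% for Iglv1 (Iglv2), so counts of these 4 may be shared with the copy.

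The libraries held 7626, 6952, 5702 and 7297 barcodes and 19072791, 17561683, 19995131 and 22399381 unique molecular identifiers (UMIs, counted transcripts). Of these barcodes the authors named 6821, 5896, 4832 and 6594 by cell type. Of the B cell names, 2 belong to germinal centre cells (GC Centroblast and GC Centrocyte) and the other three are Trans B, Fo B and MZ B. The median depth over these 5 types was 1940.5, 1928, 2729 and 2111.5 UMIs. T cells had 2613, 2279, 2265 and 2143. Of all 27577 barcodes, 416 barcode sequences occurred in at least 2 libraries. Marker lists followed most names: the summed level of 3 transitional genes was 2113 to 4983 CPM (counts per 1000000 UMIs of the type) in Trans B and 582 to 696 CPM in Fo B, and that of 4 marginal zone genes was 469 to 531 CPM in MZ B and 237 to 308 CPM in Fo B. The name GC Centroblast went against its markers, since 7 germinal centre genes summed to 24.5 to 81.1 CPM there, 569 to 1254 CPM in GC Centrocyte and 20.7 to 23.0 CPM in Fo B; it is used below only as the deposited name. The 3 myeloid genes of the list (Lyz2, S100a8, Csf1r) summed to 36.3 and 46.2 CPM in Fo B of the WT libraries and to 472 and 623 CPM in those of the knockouts, with like values in T cells (28.8 and 33.3, then 487 and 530.2 CPM). With 1 library per group no test between groups could be run. All intervals are at 95% and reflect counting error alone, with nothing on how mice, pools or preparations vary.

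Igkc was the most abundant light chain gene in all 5 B types. In Fo B, the follicular cells that make up most of the recirculating pool, its level was 14367 CPM in the young and 15863 CPM in the aged WT, 12130.2 CPM without miR-146a and 14528 CPM in the double knockout. The miR-146a knockout thus had the lowest Igkc of the 4 libraries, at 0.765 times the aged WT (interval 0.754 to 0.776), and the double knockout lay above it, with a ratio of 1.2 (1.18 to 1.22). MZ B, the cells of the marginal zone, also had the aged WT highest and the miR-146a knockout lowest, with 12512, 13087, 9872 and 11737 CPM and a ratio of 0.754 (0.742 to 0.767) for the knockout against the aged WT. In T cells Igkc was at 388, 1279, 1153 and 1103 CPM, which is 2.70%, 8.06%, 9.50% and 7.60% of the Fo B level. The free RNA level of Igkc was thus lowest in young WT and alike in the 3 aged libraries. After the T cell level was subtracted, Igkc in Fo B was 13979, 14584, 10977 and 13424 CPM, so the aged WT stayed highest and the miR-146a knockout lowest, while young WT then lay above the double knockout.

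The lambda constant genes did not all share the order of Igkc. In Fo B, Iglc1 was at 1061 and 821 CPM in the young and aged WT, and at 979 and 1072 CPM in the single and double knockout. Both knockouts were above the aged WT for this gene, at 1.19 times (1.13 to 1.26) and 1.30 times (1.24 to 1.37), and the aged WT was at 0.774 times the young WT (0.734 to 0.817). Iglc2 in Fo B was at 2053, 1740.4, 1496 and 1538 CPM. Iglc3 in Fo B was at 2020.5, 1767, 1393 and 1606 CPM. For these close copies both knockouts lay below the aged WT, at 0.860 (0.824 to 0.897) and 0.883 (0.849 to 0.919) for Iglc2 and at 0.788 (0.755 to 0.823) and 0.909 (0.874 to 0.945) for Iglc3. Iglc4 was scarcely read, with 17, 14, 4 and 8 UMIs in Fo B. In T cells Iglc1 was at 73.7, 53.3, 41.5 and 47.2 CPM, Iglc2 at 65.6, 70.9, 39.5 and 24.2 CPM, and Iglc3 at 37.6, 45.0, 22.8 and 17.6 CPM. The T cell levels of the 3 genes in the knockouts were thus below those of the WT libraries, unlike those of Igkc.

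Trans B, the recent immigrants from bone marrow, had the highest Igkc level of the 5 types in 3 of 4 libraries and the highest Iglc1 level in all 4. Their Igkc was at 17851, 19281, 11523 and 16862 CPM, and their Iglc1 at 4374, 3514, 3181 and 3931 CPM. Iglc1 was thus several times its Fo B level in each library, while Iglc3 in Trans B (2074, 2132, 1339 and 1946 CPM) differed from its Fo B level by far less. The miR-146a knockout was lowest for both Igkc and Iglc1, with a ratio of 0.598 (0.581 to 0.615) to the aged WT for Igkc. Without the cells with under 0.5% light chain UMIs that are described below, this ratio was 0.689 (0.669 to 0.709). The ratio of Iglc1 then turned from 0.905 (0.853 to 0.961) to 1.08 (1.02 to 1.15). In GC Centroblast cells Igkc differed less between the aged libraries, with 9973, 11699, 11071 and 11950 CPM. GC Centrocyte cells, which carry the germinal centre genes, went the other way, with 5459.6, 8106, 10620.5 and 11098 CPM. There the miR-146a knockout was 1.31 times the aged WT (1.25 to 1.37). Jchain, which links secreted IgM and IgA into polymers, was at 176, 644, 1205 and 1055 CPM in these cells, also lowest in young WT and higher in the knockouts than in the aged WT. The 4 T cell genes of the marker list summed to 977, 1015, 241 and 310.3 CPM in them. The part of either in the result was not tested.

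**Figure D1:**
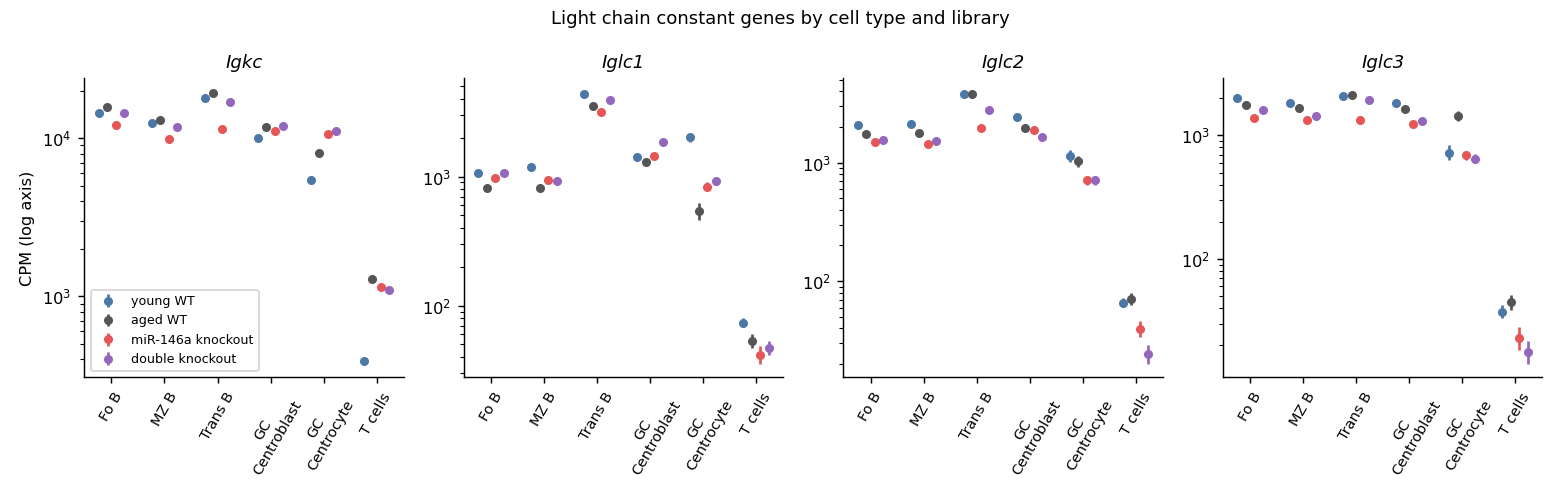
Level of Igkc, Iglc1, Iglc2 and Iglc3 (CPM, log axes with a different range in each panel) in the 5 B types and in T cells, with 1 point per library and bars for exact Poisson 95% intervals; T cells are shown without 1 barcode of the aged WT. Igkc of T cells sits at 388 CPM in young WT and at 1103 to 1279 CPM in the other libraries, and Iglc1 stands highest in Trans B.

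For the balance of the chains in single cells, a cell with at least 5 UMIs of constant genes was called kappa or lambda when that chain held at least 80% of them. In all, 3303, 3712, 2448 and 3312 B cells had 5 such UMIs. Lambda cells numbered 192 and 143 in the young and aged WT, and 150 and 177 in the single and double knockout. They made up 5.81% (5.04 to 6.67), 3.85% (3.26 to 4.52), 6.13% (5.21 to 7.15) and 5.34% (4.60 to 6.17) of these cells. The aged WT had the lowest share by this rule, at 0.663 times the young WT (0.536 to 0.819), and both knockouts were above it, at 1.59 times (1.27 to 1.99) and 1.39 times (1.12 to 1.72). Between the knockouts the interval reached past 1 (ratio 0.872, 0.706 to 1.08). Of the cells with a call, lambda cells were 13.7%, 7.10%, 10.9% and 9.47%. The distance of the double knockout from the aged WT depended on the rule: with a limit of 90% of one chain their shares were 16.7% and 15.4% with overlapping intervals, and as a share of all constant UMIs they were 25.3% and 25.2%.

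Many cells had no call, because 57.5%, 45.7%, 43.8% and 43.5% of the B cells lay between the limits. As the plot of the balance shows, these were mostly the upper part of the kappa peak and not a group of their own. In young WT the top of the peak itself lay past the limit, with 516 cells at 20% to 25% and 494 at 15% to 20%. There 1212 cells were called kappa and 1899 lay between, against 1871 and 1698 in the aged WT. The lambda share of called cells in young WT thus rests on fewer called kappa cells. The T cells give the free RNA level of the same measure: 70 of 2904, 513 of 1755, 342 of 1514 and 374 of 2083 T cells reached 5 constant UMIs, and 1, 3, 0 and 0 of these were called lambda. The counts of 0 allow a share of up to 0.877% without miR-146a and up to 0.802% in the double knockout. The lambda share among B cells was thus above that of T cells in each library by its value. In young WT the T cell share rests on 1 of 70 cells, too few to set it apart from the B cell share.

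**Figure D2:**
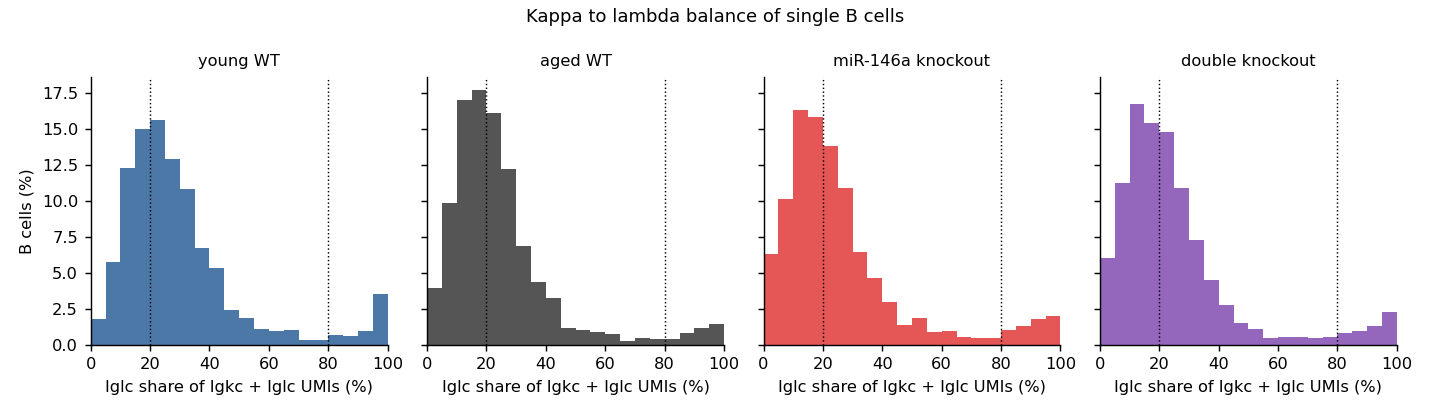
Share of Iglc UMIs among the Igkc and Iglc UMIs of each B cell (x axis, percent) against the percentage of B cells of the library (y axis), for cells with at least 5 such UMIs; dotted lines mark 20% and 80%. Each library shows a large kappa peak whose upper part lies past the 20% line, and a small lambda peak at 80% or more that holds 3.85% of the cells in aged WT and 5.34% to 6.13% in the others.

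Trans B cells had the highest lambda share of the 3 resting B types in every library. Lambda cells were 49 of 409, 31 of 334, 42 of 271 and 52 of 357 Trans B cells, or 12%, 9.28%, 15.5% and 14.6%. In Fo B the share was 4.59%, 2.82%, 5.43% and 4.38%, and in MZ B it was 4.28%, 3.43%, 4.34% and 3.41%. Within a library, the Trans B share was 2.61 (1.84 to 3.71), 3.29 (2.14 to 5.08), 2.85 (1.95 to 4.17) and 3.32 (2.36 to 4.67) times the Fo B share. All 4 intervals lay above 1, and the depths of the 2 types were close (median 1910, 1863.5, 2061.5 and 1797 UMIs in Trans B, and 1725, 1678, 2296 and 1758 in Fo B). The MZ B and Fo B shares could not be told apart at this depth in any library, with ratios between 0.779 and 1.22 and intervals that all held 1.

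The lower lambda share of the aged WT against the young WT was seen in 5 of 5 B types, with ratios from 0.578 to 0.802, but only the Fo B interval lay below 1 (0.614, 0.429 to 0.879). Against the aged WT, the miR-146a knockout was at 1.93 times (1.32 to 2.80) in Fo B and 1.67 times (1.08 to 2.58) in Trans B. The double knockout was at 1.56 times (1.09 to 2.23) in Fo B and 1.57 times (1.03 to 2.39) in Trans B. In MZ B and GC Centroblast the intervals of both knockouts against the aged WT held 1. GC Centrocyte cells went the other way, with 4 of 31, 4 of 45, 1 of 117 and 2 of 140 lambda cells, or 12.9%, 8.89%, 0.855% and 1.43%. The knockouts were the low libraries there, although 4 cells or fewer stand behind each value.

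The lambda cells were led by the same gene in each library. Iglc1 held the most constant UMIs in 116 of 192, 86 of 143, 86 of 150 and 116 of 177 lambda cells, or 60.4%, 60.1%, 57.3% and 65.5%. Iglc2 led 28.1%, 31.5%, 32.7% and 28.8% of them, and Iglc3 led 11.5%, 8.39%, 10.0% and 5.65%. No lambda cell was led by Iglc4. A lambda cell held a mean of 26.5, 24.1, 24.6 and 27.5 Iglc1 UMIs and 2.69, 3.49, 3.77 and 3.50 Igkc UMIs, while a kappa cell held 37.5, 37.7, 41.9 and 40.8 Igkc UMIs.

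Kappa cells also held lambda constant transcripts, and of a different make-up. Per kappa cell, the mean was 0.815, 0.669, 1.15 and 0.982 UMIs of Iglc1, 2.48, 2.33, 2.30 and 2.11 of Iglc2, and 2.66, 2.67, 2.60 and 2.49 of Iglc3. In kappa cells Iglc3 was thus above Iglc1 in all 4 libraries, where in lambda cells Iglc1 was above Iglc3. A large share of cells was involved. After each cell was thinned to 1000 UMIs, 81.8%, 76.9%, 68.5% and 74.1% of Fo B cells had an Iglc3 UMI, against 3.58%, 4.20%, 1.80% and 1.94% of T cells. For Iglc2 the Fo B shares were 78.8%, 73.5%, 66.7% and 69.8%, and the T cell shares 6.73%, 5.86%, 4.14% and 2.23%. For Iglc1 the Fo B shares were lower, at 35.3%, 25.8%, 30.4% and 32.5%, and the T cell shares were 7.60%, 3.91%, 3.66% and 4.52%. The thinning left out 23, 6, 19 and 11 Fo B cells and 23, 15, 66 and 24 T cells. Unthinned, 93%, 90.4%, 89.4% and 89.0% of Fo B cells had an Iglc3 UMI, against 9.40%, 10.3%, 5.55% and 4.18% of T cells.

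The Iglc2 and Iglc3 transcripts of Fo B cells were therefore far above the level of the same genes in T cells of the same suspension, at 31.3, 24.6, 37.9 and 63.6 times for Iglc2 and at 53.8, 39.3, 61.1 and 91.1 times for Iglc3. For Igkc the ratio of Fo B to T cells was 37.0, 12.4, 10.5 and 13.2. In the 3 aged libraries, Iglc2 and Iglc3 thus stood higher over the T cell level than Igkc did. How far the sequence that Iglc2 and Iglc3 share enters their counts was not tested. As a share of summed constant UMIs, where these transcripts count in full, lambda was 26.4%, 21.5%, 24.2% and 22.5% in Fo B and 36.4%, 32.9%, 35.9% and 33.9% in Trans B. The share of T cells was 31.4%, 11.7%, 8.26% and 7.46%.

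In the knockout libraries, part of the Trans B cells held little light chain mRNA. Light chain genes held under 0.5% of the UMIs in 1 of 409, 0 of 334, 44 of 282 and 32 of 369 Trans B cells, or 0.244%, 0%, 15.6% (11.6 to 20.4) and 8.67% (6.01 to 12). The count of 0 in the aged WT allows a share of up to 0.898%. In Fo B the shares were 0.135%, 0.169%, 0.591% and 0.381%, and of T cells 99.8%, 98.4%, 98.8% and 98.8% were under the limit. The limit cut through a continuous tail: 1, 0, 29 and 21 Trans B cells held 0.25% to 0.5%, and 5, 2, 49 and 31 held 0.5% to 1%. The median T cell of the single and double knockout held 0.116% and 0.109%, and 95% of T cells lay below 0.348% and 0.336%. Most low Trans B cells of the knockouts thus held more than the median T cell, but many lay within the range of those 95% of T cells. Of the 44 and 32 low cells, 15 and 14 held 0.3981% or more, and 8 and 5 held 0.3162% to 0.3981%, the bin with the 95% limit.

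The low Trans B cells of the knockouts carried genes of B cell precursors. Vpreb1 and Igll1 encode the surrogate light chain, which stands in for kappa or lambda before a light chain gene is joined. Vpreb1 was at 2453 CPM in the 44 low cells of the miR-146a knockout (16 of 44 cells) and at 2581 CPM in the 32 of the double knockout (10 of 32), against 164 and 57.5 CPM in the other Trans B cells of these libraries. Igll1 was at 1840.0 and 2132 CPM in the low cells and at 138 and 42.4 CPM in the others. Dntt, the terminal transferase that adds bases at joints, was at 786 and 912 CPM, against 45.4 and 1.51 CPM. All of these genes were thus concentrated in the low cells, yet most low cells held no UMI of Vpreb1, Igll1 or Dntt. Vpreb3, a further precursor gene, was in 44 of 44 and 32 of 32 low cells. Ms4a1 (CD20), a marker of mature B cells, was at 105 and 0 CPM in the low cells and at 2013 and 2808 CPM in the others. Cd79a, a subunit of the B cell receptor, was in 44 of 44 and 31 of 32 low cells, and Cd3d, a T cell gene, in 3 of 44 and 0 of 32. In the Trans B cells of the WT libraries, Vpreb1 had 3 UMIs in young WT and 0 in aged WT.

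GC Centrocyte cells under 0.5% were frequent in each library, with 16 of 44, 17 of 51, 41 of 129 and 46 of 150 cells, and differed in their markers. In the WT libraries most of them carried Cd3d (12 of 16 and 16 of 17) and few carried Cd79a (3 of 16 and 5 of 17). In the knockouts Cd79a was in 31 of 41 and 29 of 46, Vpreb3 in 28 of 41 and 27 of 46, and Cd3d in 10 of 41 and 13 of 46. The deposited name thus held cells with T cell genes, and in the WT libraries most of the low cells had no Cd79a UMI. Without the low cells, Igkc in GC Centrocyte was still higher in the miR-146a knockout than in the aged WT, at 1.21 times (1.16 to 1.27), and lambda cells were 14.3%, 11.8%, 1.14% and 1.92%.

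**Figure D3:**
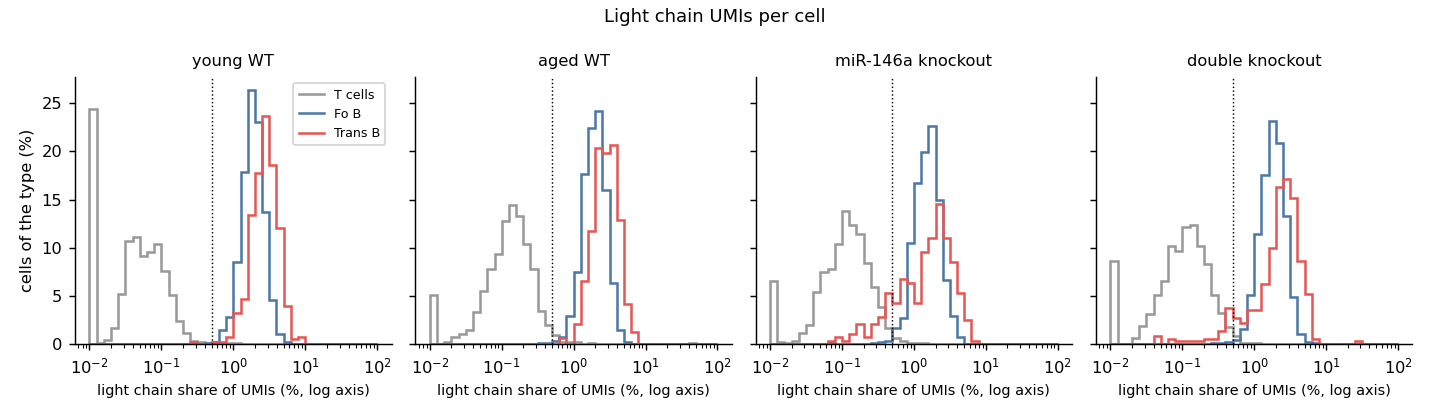
Share of a cell's UMIs from light chain genes (x axis, percent, log scale, cells under 0.01% in the lowest bin) against the percentage of cells of the type (y axis) for T cells, Fo B and Trans B in each library; the dotted line marks 0.5%. Trans B of the WT libraries lies almost wholly to the right of the line, and that of the knockouts has a tail to the left, with 15.6% and 8.67% of cells under 0.5%.

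Most light chain transcripts of the aged libraries came from few barcodes. Barcodes in which light chain genes held 20% or more of the UMIs, called high barcodes below, numbered 14 and 66 in the young and aged WT and 68 and 98 in the single and double knockout, or 0.184%, 0.949%, 1.19% and 1.34% of all barcodes. They held 32.1%, 68.9%, 75.5% and 77.4% of all constant gene UMIs. Nothing lay close to the limit in young WT, where the nearest barcodes were at 11.2% and 22.7%. In the other libraries the nearest below were at 18.1%, 19.4% and 17.6%, and the nearest above at 23.6%, 21.5% and 23.5%. The authors gave no cell type name to 12, 56, 57 and 81 of these barcodes, and named 2, 9, 11 and 15 of them T/B dbl.

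The markers of these barcodes were those of plasma cells. Jchain was found in 14 of 14, 66 of 66, 68 of 68 and 95 of 98, and Sdc1, the plasma cell surface protein CD138, in 13, 55, 57 and 84. Xbp1, a factor of the secretory programme, was in all of them. The 6 plasma cell genes of the marker list summed to 33730.2 to 63990.2 CPM, against 522 to 582 CPM in Fo B. Ms4a1 was at 93.2, 76.2, 66.6 and 94.9 CPM, against 1609, 1586, 1586 and 1815 CPM in Fo B. Their median UMI counts were 14646, 14926, 16458 and 13889, and 12, 55, 55 and 81 of them exceeded 9000 UMIs, the range in which the authors named almost no cell.

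As a share of constant UMIs, the chains were nearly exclusive in these barcodes, unlike in the B types. One chain held over 95% of the constant UMIs in 14 of 14, 64 of 66, 67 of 68 and 93 of 98. By the 80% rule, 10, 65, 67 and 94 were kappa, 4, 0, 0 and 3 lambda, and 0, 1, 1 and 1 between. Over the kappa barcodes, lambda genes held 1.19%, 1.26%, 1.21% and 1.28% of the summed constant UMIs, against 13.7%, 13.1%, 12.6% and 12% over the kappa cells of the B types. This share is relative to Igkc and does not show a lower lambda level. The kappa barcodes held 637, 5792, 5764 and 8172 Iglc UMIs beside 52777, 453032, 468921 and 629171 of Igkc. The 1212, 1871, 1227 and 1693 kappa cells of the B types held 7224, 10610, 7428 and 9466 Iglc UMIs. The summed lambda share of all high barcodes was 35.4%, 1.85%, 1.98% and 4.62%, and that of T cells was 31.4%, 11.7%, 8.26% and 7.46%. In young WT, where 4 of 14 high barcodes were lambda, both shares were high. Those 4 barcodes held 10961, 4986 and 4589 UMIs of Iglc1, and, in the last, 7024 of Iglc2 with 487 of Iglc3. The 3 lambda barcodes of the double knockout held 5269 and 5681 UMIs of Iglc1, and 3428 of Iglc3. Since so few barcodes set the value, the lambda share of high barcodes was poorly determined: the intervals were 8.39% to 58.1% of barcodes in young WT and 0.636% to 8.69% in the double knockout, and the counts of 0 allow up to 4.55% in the aged WT and 4.41% in the miR-146a knockout.

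**Figure D4:**
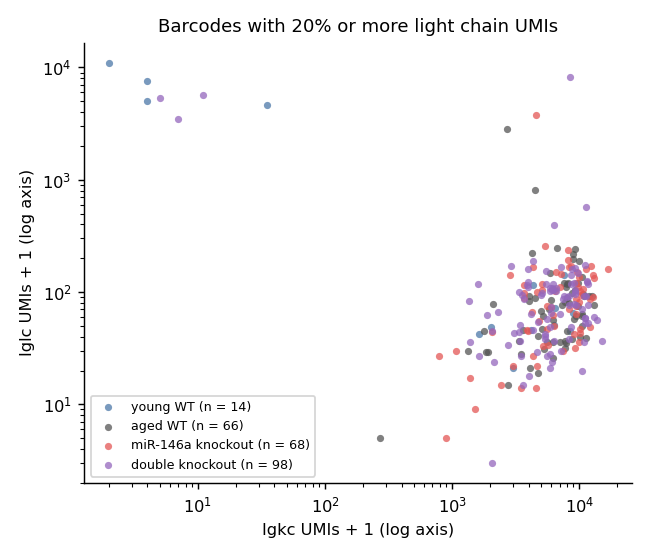
Igkc UMIs (x axis) against summed Iglc UMIs (y axis), both with 1 added and on log axes, for each barcode with 20% or more light chain UMIs, coloured by library. Most barcodes lie at the lower right with many Igkc UMIs, and 7 lambda barcodes, 4 of young WT and 3 of the double knockout, lie at the upper left with 35 Igkc UMIs or fewer after the added 1.

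Variable genes were read far less than constant genes. The 5 B types together held 343, 410, 402 and 355 Igkv UMIs, which is 3.42, 3.37, 4.68 and 3.19 per 1000 Igkc UMIs. They were in 301, 375, 268 and 307 cells, or 9.08%, 10.1%, 10.8% and 9.20% of B cells. Over the 4 libraries 103 of the 160 Igkv genes had a UMI in a B cell, 44 of them in all 4 libraries, and 51 had none in any barcode. V genes by annotation took 1476 of the 1510 UMIs, with 85 of 100 genes read, and pseudogenes took 34, with 18 of 60 read. Trans B held the most Igkv at 90.6, 96.1, 77.3 and 84.7 CPM, against 47.3, 49.0, 33.5 and 39.5 CPM in Fo B and 1.00, 6.36, 7.60 and 4.16 CPM in T cells. At this depth a cell could rarely be assigned to a gene by several UMIs, since 2, 1, 3 and 4 B cells met the rule of 3 variable gene UMIs with 80% from 1 gene. Use is therefore given as the share of cells with a UMI of the gene among cells with any Igkv UMI.

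Igkv19-93 led in every library. It was found in 68 of 301, 46 of 375, 53 of 268 and 63 of 307 such B cells, or 22.6% (18 to 27.7), 12.3% (9.12 to 16), 19.8% (15.2 to 25.1) and 20.5% (16.1 to 25.5). The aged WT was the low library, at 0.543 times the young WT (0.386 to 0.764), and the knockouts were at 1.61 times (1.12 to 2.32) and 1.67 times (1.18 to 2.37) the aged WT. T cells held 0, 2, 0 and 0 of its UMIs. Free RNA at the T cell level would account for 7.71% of its B cell UMIs in the aged WT. The counts of 0 in the other libraries are read with a floor of 3 counts and do not show that their free part was nil. By type, it was in 27.0%, 18.6%, 31.0% and 29.4% of Trans B cells with an Igkv UMI and in 25%, 11%, 30.5% and 21.6% of those of MZ B. In Fo B the order was another, with 20%, 11.1%, 9.09% and 15.2%, and 22, 16, 7 and 16 cells behind the values.

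The next genes were each in a mean of 5.05% of such cells or less. They were Igkv12-46 (5.05%), Igkv3-4 (4.63%), Igkv12-44 (4.19%), Igkv4-51 (4.06%), Igkv10-96 (3.79%), Igkv6-20 (2.98%), Igkv3-2 (2.93%), Igkv1-117 (2.84%) and Igkv13-84 (2.82%). Igkv3-4 was in 8, 27, 11 and 14 cells, with the aged WT at 2.71 times the young WT (1.25 to 5.88). The T cell level would account for 10.7%, 36.5%, 19.7% and 47.9% of its B cell UMIs, and it was also a leading gene of the barcodes rich in light chain UMIs, described above. Igkv4-51 was in 16, 21, 9 and 6 cells, with the double knockout at 0.349 times the aged WT (0.143 to 0.854). Igkv1-117 was in 6, 6, 13 and 9 cells, with the miR-146a knockout at 3.03 times the aged WT (1.17 to 7.87). Most neighbours in this order did not differ beyond their counting intervals. The effective number of Igkv genes, the inverse of the chance that 2 cells share a gene, was 16.5 (12.8 to 23.2), 26.9 (22.8 to 32.8), 20.1 (15.5 to 28.9) and 18.8 (14.7 to 26.4), highest in the aged WT, where Igkv19-93 was lowest. This holds for the 5 B types together. In Fo B alone the miR-146a knockout was highest, with effective numbers of 18.7, 23.1, 34.7 and 26.8.

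Use was not even along the locus. The 54 Igkv genes with the lowest coordinates, farthest from Igkc (67555497 to 68736780, which ends with Igkv19-93), took 47.0%, 37.6%, 45.3% and 49.2% of the pairs of a B cell and an Igkv gene. The 53 in the middle (68755038 to 69649363) took 12.5%, 11.4%, 14.4% and 10.5%. The 53 nearest Igkc (69681406 to 70704177) took 40.4%, 51.0%, 40.4% and 40.2%. The middle genes were thus the least used in all 4 libraries. These groups count V genes and pseudogenes alike, although pseudogenes took only 34 of the 1510 Igkv UMIs of B cells. Pseudogenes are fewest among the 53 genes nearest Igkc, and use per V gene was not computed. The part of likeness between copies was not tested. Without Igkv19-93, a comparison added after the data were seen, the others of the 54 farthest genes took 32.7%, 29.3%, 32.8% and 36.9%, where these 54 are 33.8% of all Igkv genes, and the middle genes took 15.9%, 12.9%, 17.7% and 13.1%. Genes on the minus strand, opposite to Igkc, took 66.8%, 57.6%, 63.2% and 62.2% with Igkv19-93 and 57.8%, 52.0%, 54.7% and 53.1% without it, while 53.1% of the Igkv genes lie on that strand.

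In the 3 aged libraries Igkv19-93, which led in B cells, was in a smaller share of the high barcodes. It was found in 2 of 10, 0 of 60, 3 of 64 and 2 of 92 high barcodes with an Igkv UMI. In the miR-146a knockout this was 0.237 times the share in B cells (0.0765 to 0.734), and in the double knockout 0.106 times (0.0264 to 0.425). The 0 of 60 in the aged WT allows a share of up to 5%, below the 12.3% of its B cells. In young WT the ratio was 0.885 with an interval that reached past 1 (0.252 to 3.11). Igkv5-39, chosen after its values were seen, went the other way, with 0 of 10, 18 of 60, 8 of 64 and 10 of 92 high barcodes, against 2, 19, 1 and 3 B cells. The ratios of the shares in the 3 aged libraries were 5.92 (3.30 to 10.6), 33.5 (4.27 to 263) and 11.1 (3.13 to 39.6). The measure is not alike in the 2 sets, because high barcodes more often held UMIs of 2 or more Igkv genes. In these libraries 24 of 60, 35 of 64 and 31 of 92 high barcodes did so. Among B cells with an Igkv UMI, 18 of 375, 17 of 268 and 16 of 307 did. How far this enters the ratios was not tested. Igkv3-4 was in 1, 10, 4 and 11 high barcodes, and Igkv4-51 in none.

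Among high barcodes with at least 3 Igkv UMIs, 6, 43, 39 and 66 had 80% of them from 1 gene, and these used 6, 22, 23 and 34 different genes. The effective number was 11.4 in the aged WT and 24.7 and 23.8 in the single and double knockout. In the aged WT, Igkv3-4 and Igkv5-39 held 9 barcodes each of the 43. The genes nearest Igkc took 61.5%, 73.7%, 59.5% and 67.1% of the pairs of a high barcode and an Igkv gene.

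**Figure D5:**
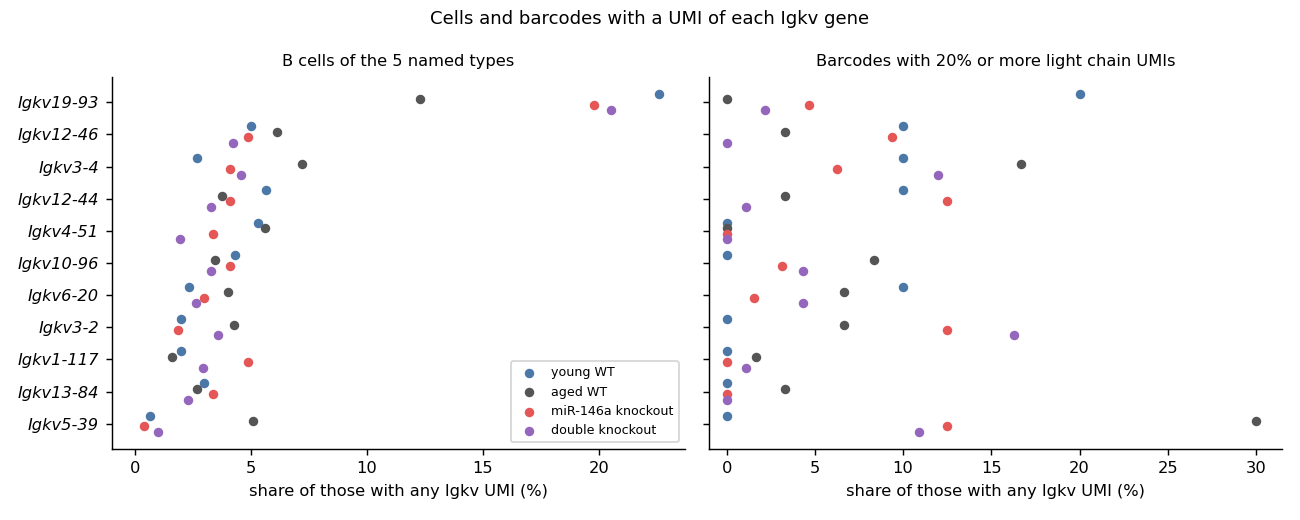
Share of B cells (left) and of barcodes with 20% or more light chain UMIs (right) that hold a UMI of each Igkv gene, among those with any Igkv UMI (x axis, percent), with 1 point per library; the right panel rests on 10, 60, 64 and 92 barcodes. Igkv19-93 stands at 12.3% to 22.6% of B cells and at 0% to 4.69% of the barcodes of the 3 aged libraries, and Igkv5-39 reaches 30% of the barcodes of the aged WT.

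A single GC Centroblast cell of the miR-146a knockout stood apart. It held 96 of the 97 Igkv17-127 UMIs of that type and library, in a total of 6987 UMIs with 160 of Igkc and 51 of Iglc genes. It was named after its values were seen. With it, Igkv in GC Centroblast was at 97.0 CPM in that library and at 29.9, 33.8 and 40.8 CPM in the others.

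The lambda variable genes were found in kappa cells as well as in lambda cells. The 5 B types held 94, 107, 75 and 91 UMIs of Iglv1, 86, 95, 53 and 64 of Iglv3, and 3, 2, 1 and 2 of Iglv2. Iglv1 was found in 29, 37, 39 and 38 kappa cells, which is 2.39%, 1.98%, 3.18% and 2.24% of them. It was found in 4, 7, 5 and 3 lambda cells, which is 2.08%, 4.90%, 3.33% and 1.69%. The share was higher in lambda cells in the aged WT and the miR-146a knockout and lower in the other 2 libraries, on counts of at most 7 cells. In the high barcodes Iglv1 had 267, 1097, 1563 and 1384 UMIs and was found in 10 of 10, 52 of 65, 54 of 67 and 72 of 94 kappa barcodes. One kappa barcode of the miR-146a knockout held 402 Iglv1 UMIs beside 4608 of Igkc and 0 of Iglc1. The lambda barcode of young WT with 10961 Iglc1 UMIs held 17 of Iglv1, and that of the double knockout with 3428 Iglc3 UMIs held 78. The end of the molecule that was read bears on such counts, and the labels give the chemistry as 3' in one place and 5' in another; its part in the result was not tested.

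Few light chain genes differed by 1.5-fold in Fo B. Among genes with at least 50 UMIs over both libraries, 4.88% of 7270 genes differed by 1.5-fold or more between aged and young WT, 7.89% of 7147 between the miR-146a knockout and the aged WT, and 5.15% of 7007 between the knockouts. Of the light chain genes 6, 5 and 4 had enough UMIs, all of them Igkc, Iglc1 to Iglc3 and Iglv genes, and 0, 1 and 0 of them passed 1.5-fold. The exception was Iglv3, with 48 UMIs in the aged WT and 12 in the miR-146a knockout, a ratio of 0.325 (0.157 to 0.621). The median log2 ratio of these genes was -0.20, -0.34 and 0.17, beside -0.00, -0.11 and 0.06 over all genes. No Igkv gene reached 50 UMIs in Fo B, so none was compared by its level there.

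Of the genes of the B cell receptor and of light chain assembly, 1 passed 1.5-fold in Fo B. Of 33 listed genes 27 had enough UMIs in each comparison, and 1, 0 and 0 were higher by 1.5-fold or more, beside 2.90%, 2.11% and 3.13% of all genes. None of the 27 was lower by as much, beside 1.98%, 5.78% and 2.03% of all genes. The 1 gene was Jchain in the aged against the young WT, at 66.5 against 22.3 CPM (2.98 times, 2.23 to 4.05), and T cells held 62.0 and 18.7 CPM of it. Its Fo B level thus lay close to the T cell level. The lowest ratio in that comparison was 0.841 (0.752 to 0.940) for Spib, a transcription factor of B cells. Between the miR-146a knockout and the aged WT the extremes were Pou2af1, the coactivator of immunoglobulin promoters, at 1.34 (1.18 to 1.52), and Btk, a kinase of the B cell receptor, at 0.773 (0.642 to 0.929). Between the knockouts they were Xbp1 at 1.27 (1.03 to 1.58) and Pou2af1 at 0.837 (0.740 to 0.946). The median log2 ratio of the list was 0.03, -0.04 and 0.06.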

How the data were processed

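The authors deposited raw UMI counts per gene and barcode and a cell type name for most barcodes; per the submitters' processing notes the matrices came from Cell Ranger 3.0.0 on mm10. The sources used here do not say how the names were given. The members and lists were chosen with earlier results of these data known. UMIs were summed per deposited type and library and given as CPM (per 1000000 UMIs of the type). Sums have exact Poisson intervals, shares Clopper-Pearson, ratios of CPM conditional binomial and ratios of cell shares Katz intervals, at 95%. T cells are the 5 names with Cd4 or Cd8; 1 Mem Cd4 barcode of the aged WT with 2787 light chain UMIs of 6210 was left out of their CPM. Genes named are all constant and lambda variable genes, the 10 leading Igkv genes by mean share, a gene held by 1 cell, and the extremes of the receptor list; further ones are marked in the text. The planned rule for variable genes (3 UMIs, 80% from 1 gene) left too few cells, so cells with any Igkv UMI were used. Counts of 0 are read with a floor of 3 counts. Sequences and likeness come from GENCODE M21 transcripts, aligned with Biopython 1.88. Python 3.11.15, numpy 2.4.6, scipy 1.17.1, pandas 2.3.3 and matplotlib 3.10.9 were used. The chain calls, the fold counts, the interval of CPM ratios and the effective number were tested on simulated data. The Clopper-Pearson and Katz intervals were not. The simulated kappa cells held a smaller lambda share than those of the data. Doublets were not called again, and cells named T/B dbl were left out of the 5 B types. The sources used here do not say whether counting used strand.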

Additional observations from a re-analysis of the deposited data

Results flagged for a closer look

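Barcodes without a cell type name, which enter no comparison between types, held the plasma cell signal. Relative to young WT, the share of barcodes that had no name and 20% or more light chain UMIs was 5.12 times as high in the aged WT (2.75 to 9.54), 6.35 times in the miR-146a knockout (3.41 to 11.8) and 7.05 times in the double knockout (3.85 to 12.9). Between aged libraries the intervals held 1 (double knockout against aged WT 1.38, 0.982 to 1.93).

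The ratio of Igkc between the miR-146a knockout and the aged WT was not alike in all B types. It was 1.31 in GC Centrocyte, 0.765 in Fo B, 0.754 in MZ B and 0.598 in Trans B. The ratio of lambda cell shares in the same comparison was 1.93 in Fo B, 1.67 in Trans B and 0.0962 in GC Centrocyte. For the double knockout against the aged WT it was 1.56 in Fo B, 1.57 in Trans B and 0.161 in GC Centrocyte. These differences between types have no replicates and were not tested.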

How the results depend on the processing

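No paired analysis was possible because each group has 1 library. Values are in the order young WT, aged WT, miR-146a knockout, double knockout. Lambda cells of all called B cells kept the aged WT as lowest under each alternative run, but the double knockout lay close above it with 90% of 1 chain and as a share of constant UMIs. Their share was 9.17%, 5.71%, 8.81% and 7.80% with a limit of 70% of 1 chain, and 35.4%, 15.4%, 18.3% and 16.7% with 90%. It was 30.6%, 25.2%, 26.8% and 25.3% as a share of constant UMIs, and 30.5%, 26.4%, 28.5% and 26.6% with the T cell level subtracted. A simple majority, added after the data were seen, gave 10.9% in young WT, and lambda cells of all cells with 5 UMIs, also added, gave 5.81%, 3.85%, 6.13% and 5.34%. Igkc in Fo B was 14727, 16287, 12391 and 14889 CPM without immunoglobulin genes in the total, 16143, 12459.8 and 14889 CPM as a mean over cells of the last 3, and 13979, 14584, 10977 and 13424 CPM with the T cell level subtracted. The Iglc sum was 5269.6, 4449, 3953 and 4323 CPM without immunoglobulin genes, 3998 CPM as a mean over cells of the miR-146a knockout, and 4963, 4164, 3766 and 4129 CPM with T cells subtracted. The number of Igkv genes past 1.5-fold in Fo B was 0 of 0 with 50 UMIs in each comparison. It was 2 of 3, 2 of 2 and 1 of 1 genes with 20 UMIs. With 1 UMI in each library it was 16 of 26, 17 of 26 and 18 of 25. By cells with a UMI (added) it was 2 of 3, 1 of 2 and 1 of 1. The share over all genes was not computed at these minimums, so these counts say nothing on the Igkv genes as a set. The effective number was 7.09, 15.6, 6.00 and 12.7 with 2 variable gene UMIs; in the double knockout it was 2.00 with 3 and 1.00 with 90% from 1 gene. By UMI shares it was 11 in the miR-146a knockout, and 18.7 without the cell with 96 Igkv17-127 UMIs. Igkv19-93 was in 9.09% of Fo B cells with an Igkv UMI in the miR-146a knockout and in 19.8% over all 5 B types. The cause of these moves was not tested. A minimum of 5 variable gene UMIs gave no value, and shares of called cells could not be given for the Igkv count. The other 54 values moved by less than the counting interval or the 1.5-fold band. They include the Igkv counts with 100 UMIs, at 2-fold, by share of Igkv UMIs and without the top cell of each gene. No gene was tested in those settings, so these counts were fixed at 0 and say nothing on stability. The few Igkv UMIs per cell limit all statements on single variable genes.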
